A study of Mus musculus with 12 samples.

Results

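The genes described here drive or restrain the cell division cycle and DNA replication. They are a named set of 50 mouse genes, found by their symbols, and all 50 are among the 25239 genes of the expression table. Of these, 5 genes (Cdk6, Cdkn1b, E2f1, Exo1 and Nusap1) also have peaks in the deposited m6A table, with 1 peak each of 2643 in all. Mesaconitine (MA) is a diterpenoid alkaloid of Aconitum, and HT22 is an immortalised, dividing line derived from mouse hippocampal neurons. The MA groups are wild-type HT22 cells exposed to 800 μM MA for 72 h, and the control groups are HT22 cells of the same genotype without MA. From each treatment there are 3 anti-m6A immunoprecipitation (IP) libraries and 3 input libraries, 12 in all. The study asked whether m6A, a methyl mark on adenosines in mRNA, is involved in the toxicity of MA. All libraries come from 1 cell line, and the labels do not say whether the 3 libraries of a group were separate cultures.

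Passage through the cycle is driven by cyclin-dependent kinases (CDKs), whose activity depends on cyclins and is held back by CDK inhibitors. In G1, D-type cyclins with Cdk4 or Cdk6 phosphorylate the retinoblastoma protein and free E2F factors, which switch on the genes of DNA replication. The MCM proteins are loaded at replication origins by Cdc6 and Cdt1, and cyclin B with Cdk1 later starts mitosis, in which the spindle and its checkpoint separate the chromosomes. Mature neurons have left this cycle, whereas a cell line grown in culture runs through it. The 50 genes were grouped by role into 5 groups: G1 and G1/S with 11 genes, CDK inhibitors with 4, replication with 12, G2/M control with 11 and mitosis with 12.

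Both tables limit what can be said of MA. The peak table holds reads summed over the 3 libraries of each group, so each group is 1 value, no replicate spread can be computed and no test was made. The intervals given for reads and ratios cover counting error only. The expression table gives, apart from the authors' own comparison, which was not used, 1 base mean per gene, which is the mean normalized count over libraries. It does not name the libraries averaged and does not separate MA from control, so it describes how much RNA of a gene these cells held and not how MA altered it. As a check of the label, 5 of 10 neuronal markers (Map2, Snap25, Neurod1, Prox1 and Gria1) were listed at a base mean of 0. A further 3, Rbfox3, Syp and Slc17a7, lay between 0.853 and 4.70, and only Tubb3 with 473 and Dlg4 with 4073 exceeded 10. Of 3 marker genes each for astrocytes and microglia, 1 per list exceeded 10, namely Slc1a3 with 1140 and Aif1 with 64.3.

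The sequences under the 5 peaks show what the antibody comparison rests on. They were read from the GRCm38 assembly, which is mm10, on the transcribed strand, and all 5 peaks were found whole in the transcript they were placed on. The peak of Exo1 is shown in full because it is the only one in coding sequence. Of the other 4, which lie in untranslated regions, 29 bases are shown, centred on a motif where the peak holds one and on the middle of the peak where it holds none. Capitals mark the consensus motif of m6A sites, searched on the transcribed strand only. It has 5 letters, namely AC after a pair of purines (each A or G) and before A, C or T, which gives 12 possible words, GGACT being the best known.
Cdk6: ggaaaagatatgAAACTgtctcagtttga
Cdkn1b: tactacatctttAAACAgcgtttcttcat
E2f1: gggaatgaaggtGAACAcatctgtatgtg
Exo1: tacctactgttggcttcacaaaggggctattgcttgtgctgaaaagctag
Nusap1: agaaaaaggtgtatcacaagagtcacgac

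Of the 5 peaks, 3 held such a word. The Cdk6 peak (chr5:3527784-3527933, plus strand, 150 bases) held 2, the one shown and GAACA. The Cdkn1b peak (chr6:134925171-134925220, plus strand, 50 bases) held 1, the one shown, and the E2f1 peak (chr2:154560275-154560349, minus strand, 75 bases) held 2, the one shown and AGACA. None occurred in the peaks of Exo1 (chr1:175882997-175883046, plus strand, 50 bases) and Nusap1 (chr2:119618373-119618422, plus strand, 50 bases). Of all peaks with 1 block and 1 gene, 47.9% of the 873 peaks of 50 bases held at least 1 of the words, 63.3% of the 379 of 75 bases and 83.6% of the 61 of 150 bases. The absence of the words in a window of 50 bases is therefore common among peaks of that length. How often sequence outside peaks holds them was not computed, so a word by itself does not mark a methylated site.

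In GENCODE release M21 the peaks fell in different parts of their transcripts. The peak of Cdk6 lay in exon 8 of 8, in the 3′UTR, with its middle 7070 bases after the last coding base, and was part of 1 of the 5 coding transcripts. That of Cdkn1b lay in exon 2 of 2, in the 3′UTR and 3124 bases after the last coding base, in all 3 coding transcripts. That of E2f1 was the closest to the coding sequence among these 3′UTR peaks, at 379 bases in exon 7 of 7, in both coding transcripts. The Exo1 peak lay in the coding sequence, in exon 3 of 15, and was shared by 5 of 8 coding transcripts. The Nusap1 peak lay in the 5′UTR in exon 1 of 11, in 1 of 2 coding transcripts.

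Cell cycle RNA was abundant in these cells. Of the 50 genes, 49 had a base mean above 0, and 48 of these lay above the median of all 14020 genes with a base mean above 0 and a coding transcript, when the base mean was divided by the length of the longest coding transcript. Their median was 1027 per kilobase, against 256 for all such genes, and the median gene of the set stood at percentile 80.4. Above the 90th percentile lay 15 of the 49. Together the set made up 1.03% of the sum of all base means, and Mki67 alone contributed 26.2% of the set. These levels carry no error, since a base mean has none in the table, so whether neighbours in their order differ cannot be said.

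The replication genes were the most abundant group by median, with 2463 per kilobase and a range from 409 to 5834. All 12 lay above the median of all genes and 7 above the 90th percentile. The highest were Mcm3, a subunit of the replicative helicase, at 5834 per kilobase, Pcna, the sliding clamp of DNA polymerase, at 5570, and Rrm1, the large subunit of ribonucleotide reductase, at 4709. The other helicase subunits Mcm6, Mcm7, Mcm2 and Mcm4 lay between 2348 and 3443 per kilobase, and Mcm5 at 1081 was the lowest of the 6. Among the licensing factors, Cdt1 reached 1543 per kilobase and Cdc6 only 409. Rrm2, the small subunit of ribonucleotide reductase, had 1137 per kilobase, below its partner Rrm1. Exo1, an exonuclease of mismatch repair and DNA end resection, had a base mean of 3276, which is 420 per kilobase because its longest coding transcript has 7796 bases.

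Mitosis genes had a median of 1849 per kilobase, and all 12 lay above the median of all genes. Mki67, the proliferation marker that coats mitotic chromosomes, was the highest of the whole set with a base mean of 107656 and 10700 per kilobase, at percentile 98.8. Top2a, the topoisomerase that untangles sister chromatids, was next with 10409 per kilobase. Tpx2, a spindle assembly factor, had 2648 per kilobase, and the kinetochore motor gene Cenpe 2219. The spindle checkpoint genes were spread over a range, with Bub1b at 1878 per kilobase, Bub1 at 776 and Ttk at 566, the lowest of this group. Nusap1, which binds spindle microtubules, had a base mean of 2655 and 753 per kilobase, at percentile 73.7.

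For G2/M control the median was 806 per kilobase, with all 11 genes above the median of all genes. Cdk1, the mitotic kinase, stood highest at 3005 per kilobase and was the only gene of this group above the 90th percentile. Of its cyclins, Ccna2 had 1818, Ccnb1 1175 and Ccnb2 441 per kilobase. The aurora kinase genes Aurkb and Aurka had 1765 and 880 per kilobase, and Plk1, another mitotic kinase, had 727. The transcription factor genes Foxm1 and Mybl2, which drive late cell cycle genes, had 728 and 613. The phosphatase genes that activate Cdk1 differed in level, with 806 per kilobase for Cdc25b and 408 for Cdc25c, the lowest of this group.

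The G1 and G1/S genes had the lowest group median, 614 per kilobase, and 10 of 11 lay above the median of all genes. Cdk4 stood apart at 2483 per kilobase and percentile 92.9, whereas Cdk6, its close relative, had 259 and percentile 50.2. The scale matters here, since the base mean of Cdk6 was 2984 but its longest coding transcript has 11525 bases. The D-type cyclins Ccnd1, Ccnd3 and Ccnd2 had 620, 538 and 451 per kilobase, and the E-type cyclins Ccne1 and Ccne2 had 1060 and 657. Cdk2, the partner of the E-type cyclins, had 614 per kilobase, and Cdc25a, the phosphatase that activates it, 381. Of the E2F factors, E2f1 had 647 per kilobase and E2f2 95.5, at percentile 35.6. With the longest coding transcript as length, E2f2 was the only one of the 49 genes below the median of all genes.

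Of the 4 CDK inhibitors, 3 had a base mean above 0. Cdkn2c, an inhibitor of Cdk4 and Cdk6, had 1027 per kilobase, Cdkn1a, a target of p53, had 934, and Cdkn1b, which binds cyclin E and Cdk2 complexes, had 575. Cdkn2a (chr4:89274471-89294653 on GRCm38, minus strand), which encodes the tumour suppressors INK4A and ARF, was listed at a base mean of 0. Its neighbour in the INK4 locus, Cdkn2b, is no member of the set and was also listed at 0. A base mean of 0 is listed for 9061 genes, and none of 14 commonly used reference genes is among them, the lowest of these being Gusb with a base mean of 838. Reference genes are chosen for being widely expressed, so this check cannot show whether a base mean of 0 means absent RNA. Among them Gapdh had only 893, against 54350 for Actb, and whether the base mean understates some genes was not tested.

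**Figure D1:**
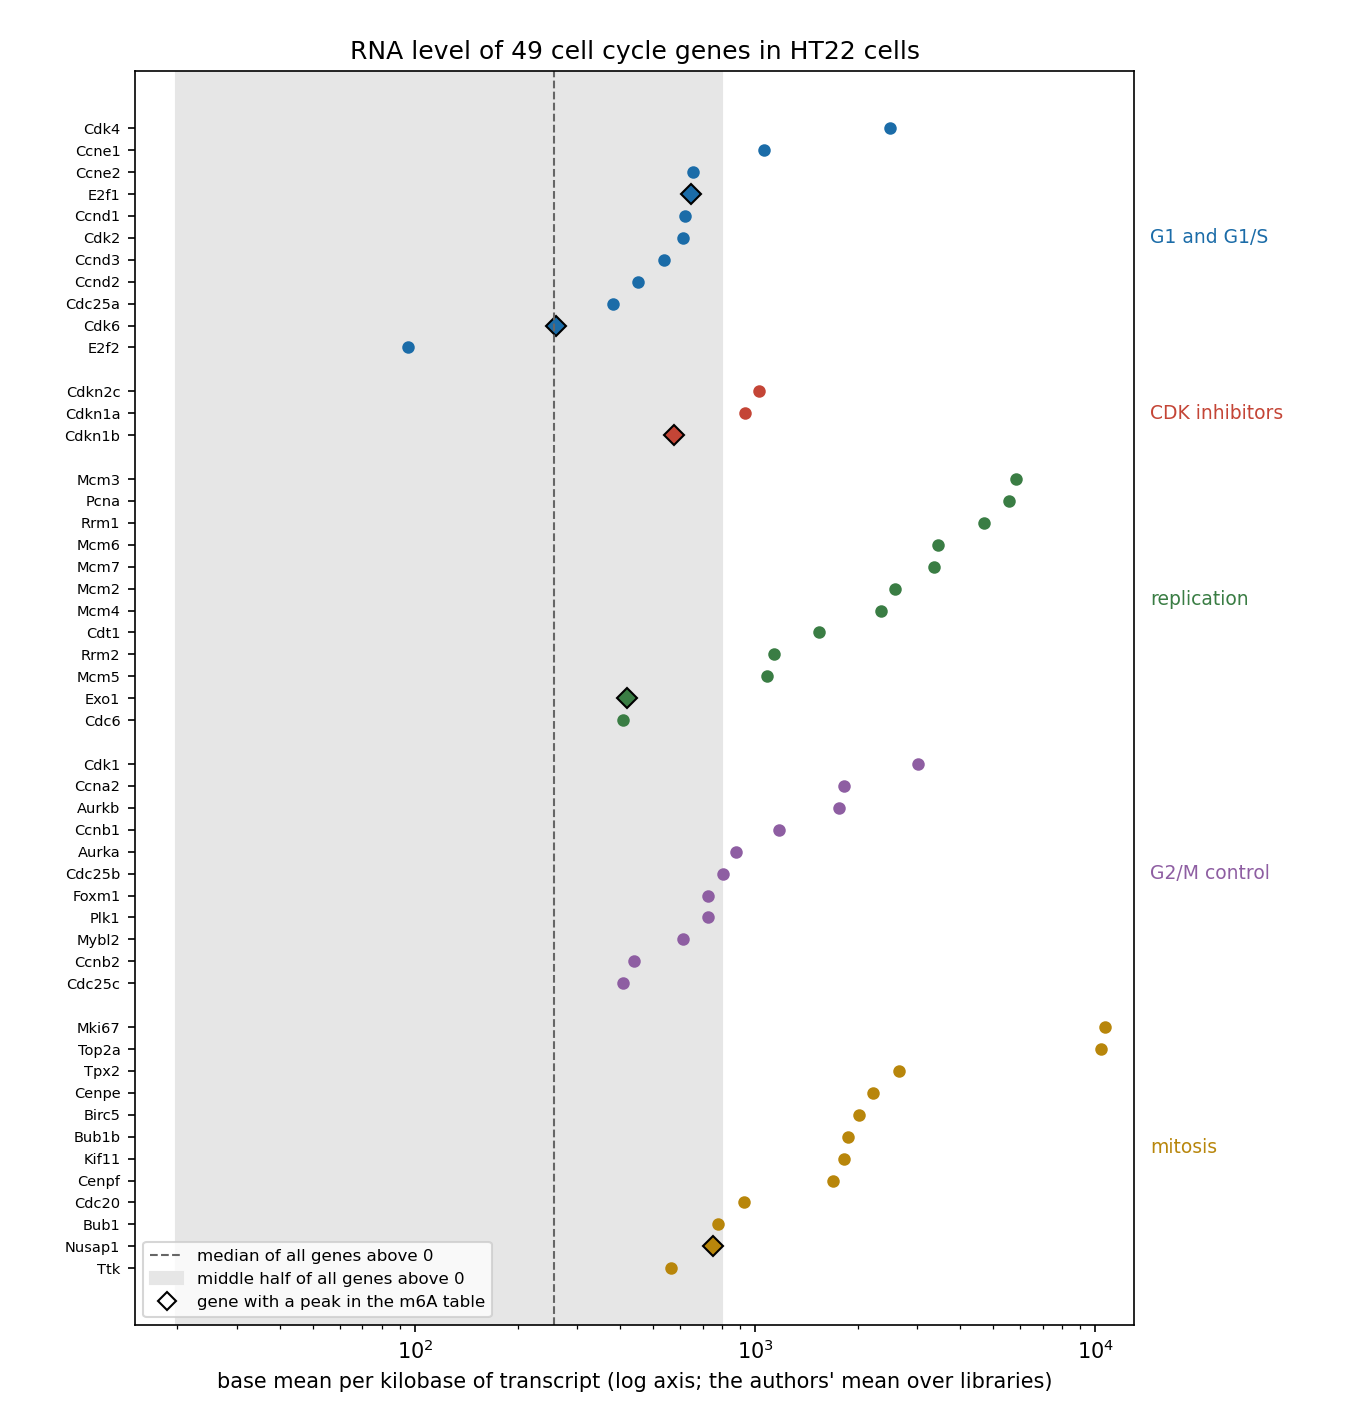
RNA level of the 49 cell cycle genes with a base mean above 0, as the base mean per kilobase of the longest coding transcript on a log axis, 1 point per gene, sorted within the 5 groups by role. Mki67 and Top2a stand highest with 10700 and 10409 per kilobase, E2f2 alone lies below the dashed median of all genes at 256, and diamonds mark the 5 genes with a peak in the m6A table.

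The peak table is the authors' comparison of both treatments and is shorter than the full list of peaks the study called, which was not analysed here, so a gene without a peak in it may still carry one. Among the 49 genes with a base mean above 0, 5 had a peak, or 10.2% (exact Clopper-Pearson 95% interval 3.40% to 22.2%). Over all 16178 such genes the share was 12.5%, and over the 8330 other genes whose base mean lay in the range of the set, from 452 to 107656, it was 17.9%. Both shares lie inside the interval of the set. This interval treats the genes as independent draws, although they are a chosen list, so a difference from other genes was not tested. By role, the genes with a peak were 2 of 11 in G1 and G1/S, 1 of 3 CDK inhibitors above 0, 1 of 12 in replication and 1 of 12 in mitosis. No peak was listed on the 11 G2/M control genes, where the exact interval for 0 of 11 reaches up to 28.5%. The highest genes by level, Mki67 and Top2a, have no peak in this shortened table. The 5 genes with one stood at ranks 31 to 48 of the set by base mean per kilobase. By base mean not divided by length they ranged from 1783 for E2f1 to 3276 for Exo1, around the median of 2925 for the set.

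Read by pool, the 5 peaks showed 2 patterns, before any correction for depth. The split in control cells is within counting error, since each 95% interval of the control ratio includes equal IP and input reads. In the Nusap1 peak the control pools held 25 input and 19 IP reads and the MA pools 7 input and 38 IP reads. In the Exo1 peak there were 142 input and 112 IP reads in control cells, against 65 input and 168 IP reads after MA. In both peaks the IP reads were fewer than the input reads in control cells and more numerous after MA. The median ratio of IP to input reads over all peaks likewise went from 0.958 in control cells to 1.84 after MA. The other 3 peaks had more IP than input reads in either condition. For Cdk6 the input and IP reads were 51 and 57 in control cells and 48 and 82 after MA. The corresponding values were 64, 77, 52 and 76 for Cdkn1b and 21, 27, 23 and 37 for E2f1. In the same order, the medians over the whole peak table were 57, 57, 40 and 81 reads, so the E2f1 and Nusap1 peaks were among the shallower ones and the Exo1 peak held more reads than the median peak in every pool.

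**Figure D2:**
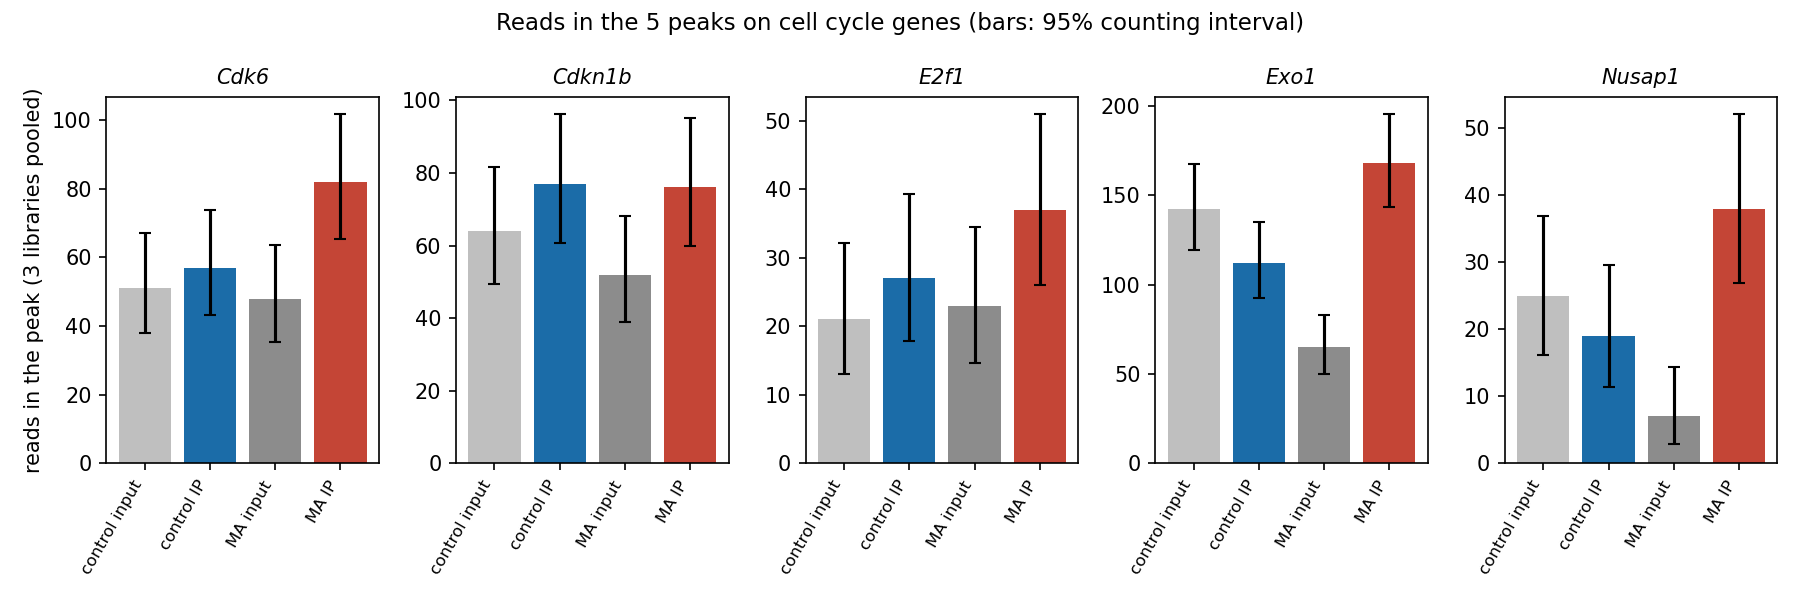
Reads in the 5 peaks on cell cycle genes, pooled over 3 libraries per group, with 1 panel per gene, separate linear vertical axes that start at 0, and exact 95% Poisson intervals as error bars. In Exo1 the MA IP pool (168 reads) is the highest bar and the MA input pool (65) the lowest, and in Nusap1 the MA input pool holds only 7 reads, whereas the 4 bars of Cdk6, Cdkn1b and E2f1 are closer to each other.

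Ratios of IP to input reads, uncorrected for the depth of the libraries, put these reads on 1 scale. For Exo1 the ratio was 0.789 (95% interval 0.610 to 1.02) in control cells and 2.58 (1.93 to 3.50) after MA. For Nusap1 it was 0.760 (0.396 to 1.44) and 5.43 (2.39 to 14.4). In both genes the intervals of the 2 conditions did not overlap. How many of all peaks share this was not computed, and the ratio of the median peak rose after MA too. For Cdk6 the ratio was 1.12 (0.752 to 1.66) in control cells and 1.71 (1.18 to 2.49) after MA, for Cdkn1b 1.203 (0.852 to 1.70) and 1.46 (1.01 to 2.12), and for E2f1 1.29 (0.700 to 2.39) and 1.61 (0.931 to 2.84). In these 3 genes the intervals of the 2 conditions overlapped.

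The ratio was also higher after MA in the typical peak of the table, with medians of 0.958 in control cells and 1.84 after MA, and the log2 change of the median peak was 0.91. Depth of the pools and a general change of methylation cannot be told apart in these sums. Each change was therefore given relative to this median, and a peak was counted as higher or lower beyond 1.5-fold. On this scale 27.9% of all peaks were higher and 25.9% lower, and without the centring 64.4% were higher and 7.87% lower.

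Relative to the median peak, 2 of the 5 peaks on cell cycle genes were higher after MA and 2 lower, with shares over all peaks of 27.9% and 25.9%. Nusap1 was 3.80-fold higher (95% interval 1.28 to 12.1), and this rests on the 7 reads of its MA input pool. Exo1 was 1.74-fold higher (1.17 to 2.59). Their log2 changes of 1.93 and 0.80 stood at percentiles 95.5 and 78.8 of all peaks. Cdkn1b and E2f1 were lower, with log2 changes of -0.63 (interval -1.37 to 0.11) and -0.59 (interval -1.81 to 0.63), both just past the threshold of 0.58 and with intervals that include 0. Without the centring both of these changes were above 0, at 0.28 and 0.32. Cdk6 was within the threshold, with a log2 change of -0.30 (interval -1.10 to 0.50). The median over the 5 peaks was -0.30, against 0 by construction over all peaks.

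**Figure D3:**
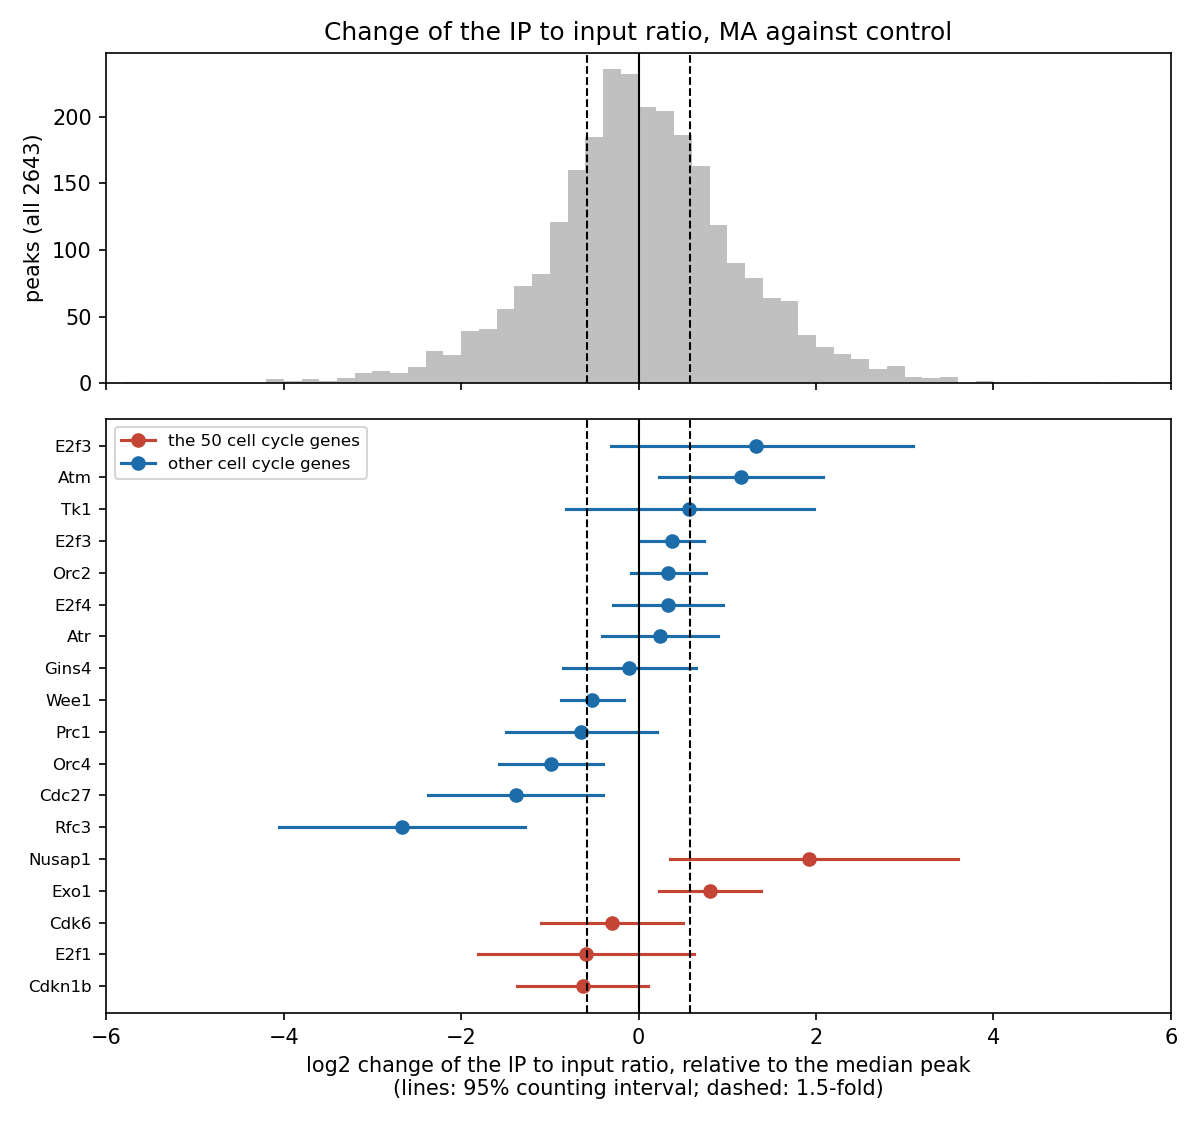
Change of the IP to input ratio between MA and control on the log2 scale relative to the median peak, as a histogram of all 2643 peaks above and as 1 point per peak with its exact 95% counting interval below, with dashed lines at 1.5-fold. Nusap1 at 1.93 and Exo1 at 0.80 have intervals that stay above 0, the intervals of Cdk6, Cdkn1b and E2f1 include 0, and the peaks on other cell cycle genes run from -2.66 for Rfc3 to 1.32 for a peak of E2f3.

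The change of a ratio can come from either pool, so the input and IP reads were also compared on their own, each relative to its median over all peaks. In the input reads, which measure RNA in the window of the peak and not its methylation, 1 of the 5 peaks was higher and 2 were lower beyond 1.5-fold after MA, where 12.1% and 14.9% of all peaks were. The lower ones were Nusap1, with a log2 change of -1.36 (interval -2.82 to -0.11), and Exo1, with -0.65 (interval -1.10 to -0.22). E2f1 was the higher one with 0.60 (interval -0.31 to 1.53), and Cdk6 and Cdkn1b had 0.39 and 0.17 with intervals that include 0. In the IP reads the log2 changes were smaller in size for Exo1, at 0.12, and for Nusap1, at 0.53, while Cdkn1b had -0.48, Cdk6 0.06 and E2f1 -0.01. For Exo1 and Nusap1 the input reads thus differed more between treatments than the IP reads, both on this scale and in the reads as deposited. For Cdk6 and E2f1 this held only relative to the median peak, with intervals that include 0, since in the deposited reads their IP pools differed more than their input pools. The ratio contains the input reads, so its change and that of the input are not independent. Fewer cells of a type and less RNA per cell cannot be told apart in such bulk reads.

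A second list of 71 cell cycle genes outside the set holds the retinoblastoma family, further E2F factors, origin recognition subunits, polymerases, checkpoint kinases and spindle proteins. All 71 are in the expression table, 69 above 0, and the exceptions were E2f6 and Cdkn2b, both listed at 0. Their median stood at percentile 74.8 by base mean per kilobase, and 63 of the 69 lay above the median of all genes. Peaks numbered 13 on 12 of these genes, or 17.4% of 69 (exact interval 9.32% to 28.4%), against 10.2% of the 49 genes of the set. These intervals overlap, and both shares are taken from the same shortened list of peaks. Both lists of genes were chosen and not drawn at random, so a difference between them was not tested. Beyond 1.5-fold relative to the median peak, 2 of the 13 peaks were higher after MA and 4 lower, beside 27.9% and 25.9% of all peaks.

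The higher ones lay on Atm, a kinase that responds to DNA breaks, with a log2 change of 1.15 (interval 0.23 to 2.08), and in the 3′UTR of E2f3, with 1.32 (interval -0.31 to 3.10) from only 6 reads of MA input. A second, longer peak of E2f3 had 0.37. The lower ones lay on Rfc3, a subunit of the clamp loader, with -2.66 (interval -4.06 to -1.28), Cdc27, a subunit of the anaphase-promoting complex, with -1.39 (interval -2.38 to -0.41), Orc4, with -0.98 (interval -1.57 to -0.40), and Prc1, a midzone protein of the spindle, with -0.64 (interval -1.49 to 0.20). Rfc3 had 15 input and 43 IP reads in control cells and 20 input and 17 IP reads after MA, so its IP pool was smaller after MA. Set beside these, Nusap1 had the highest value of all 18 peaks on cell cycle genes of both lists, and Exo1 the fourth. The intervals of Nusap1, the 3′UTR peak of E2f3, Atm and Exo1 overlap, so their order cannot be told.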

How the data were processed

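The members and gene lists were chosen with earlier results of these data known. Per the study's methods and the labels, the authors used fastp for read cleaning, HISAT2 for alignment to mm10, StringTie for RNA quantification and DESeq2 for the comparison of groups, while peaks were called and compared with exomePeak2. Tool versions are not given in the sources used here. The base mean is a normalized signal deposited by the authors. The counts of reads per peak were deposited by the authors as sums over the 3 libraries of a group. The authors' comparison columns (fold changes, standard errors, test statistics, p-values, adjusted p-values, the peak score and log2 ratios per group) were not used, and no column of single libraries was left out (0).

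From these values, the log2 ratio of IP to input reads was computed per treatment, subtracted, and centred on the median of 2643 peaks. Intervals of ratios are exact binomial (Clopper-Pearson), and those of changes come from the exact conditional odds ratio, all at 95%. Interval coverage was tested on data simulated with counting error alone, so this test cannot speak to variation between libraries. No test between groups was made. Peaks naming several genes (68) were left out of gene counts. Lengths came from GENCODE M21, matched by symbol for 20437 of 25239 genes and all 50 members. The peak starts were read as 0-based and are given here 1-based. Total reads over all peaks were 288659 for control input, 267002 for control IP, 214778 for MA input and 359889 for MA IP. Named genes were every member with a peak, the 5 highest and 5 lowest by base mean per kilobase, those at 0, and other cell cycle genes with a peak beyond 1.5-fold. Further members were named after their values were seen, to describe each group by role. The tools were scipy 1.17.1, pandas 2.3.3, numpy 2.4.6, pysam 0.24.0 and matplotlib 3.10.9 under Python 3.11.15. One list of glial markers is not reported here.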

Additional observations from a re-analysis of the deposited data

How the results depend on the processing

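Of 55 values recomputed under the alternatives, 40 were counted as kept. Of the medians, counts and percentiles over the set, 16 were kept and 11 moved. Of the values of single peaks, 24 were kept, 2 moved and 2 changed sign. The change of a peak was kept if it moved by no more than the distance from the middle to the end of its interval. A change beyond 1.5-fold also had to keep its sign. For medians over the peaks the limit was the median of these distances. For level percentiles it was the standard deviation over the set, and for counts 1.5 times. The number of genes of the set with a peak stayed at 5 when peaks that name several genes were counted too. The median percentile of the set by level was 82.5 with the union of all exons as length and 76.2 among genes with a base mean of at least 10. With the union of all exons, Ccnd3 (percentile 44.8), Cdc25c (48.5) and Cdc25a (49.8) also lay below the median of all genes, beside E2f2 (39.5). The counts of genes above that median thus hold only for the longest coding transcript. Without centring the median change of the 5 peaks was 0.61, none (0) was lower beyond 1.5-fold, and Cdkn1b and E2f1 turned to 0.28 and 0.32. With each pool scaled by its total reads, 2 peaks passed 1.5-fold, 2 higher and 0 lower. A threshold of 2-fold left 1 peak, 1 higher (Nusap1) and 0 lower. Among peaks with at least 20 reads in each pool, which removes Nusap1, 2 passed, 1 higher and 1 lower. With 1 read added to each pool, 1 was lower. The lower calls thus rest on values close to the threshold. The log2 change of Exo1 lay between 0.80 and 1.71 in all of these settings, above 1.5-fold, and under 2-fold except without centring. No paired analysis was possible because the peak reads are sums over replicates, and for the same reason leaving out each replicate, a replicate block and other size factors were not run. Depth limits Nusap1 and E2f1 most, with 7 and 21 reads in their smallest pools.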
